A study of Mus musculus with 13 samples.

Results

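Expression of 10 genes of the Hippo pathway and its nuclear effectors was compared across 13 murine NUT carcinoma (mNC) tumors profiled by bulk RNA-seq. The genes were chosen by name and comprised the 4 TEAD transcription factor genes Tead1, Tead2, Tead3 and Tead4, the co-activator genes Yap1 and Wwtr1, the pathway genes Ajuba, Amotl2 and Lats2, and the target gene Ankrd1. They were 10 of 55332 genes with values, and all 10 passed the count filter in each of the 5 comparisons. NUT carcinoma is an aggressive squamous cancer, and the NCT allele starts the mouse tumors wherever Cre is active. All 13 tumors carried the NCT+/- allele and a Cre driver. Oral tumors wild type (WT) for Sox2 (n = 4) were labelled KRT14-Cre, a driver active in basal cells of oral mucosa, skin and salivary gland. Oral Sox2 KO tumors (n = 2) carried Sox2fl/fl alleles, and their label spells the driver KRT4Cre while the study's text names KRT14-Cre. Pancreatic WT (n = 4) and Sox2 KO (n = 3) tumors carried Pdx1-Cre, which is active in pancreatic progenitors, and the KO label reads Sox2fl; fl. Sox2 was thus deleted in the Cre lineage alone, and whole dissected tumors with their stroma were sequenced. Ages are not in the labels, which number the tumors and do not say whether each came from its own mouse, so p-values measure the spread between these tumors.

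In the Hippo pathway a kinase cascade ends in the LATS kinases, which phosphorylate the co-activators YAP and TAZ (the product of Wwtr1) and hold them in the cytoplasm. Unphosphorylated YAP and TAZ enter the nucleus, where they bind the TEAD factors on DNA and switch on growth and matrix genes. In stratified epithelia the pathway is known to balance proliferation of basal cells against differentiation. mRNA levels report neither phosphorylation nor the location of YAP and TAZ.

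Because TEAD factors bind the core motif GGAATG, the promoters of the 10 genes were searched for it on both strands. RefSeq promoter sequences (250 bases before to 50 after each start site, GRCm38.p6) matched 8 of the 10 genes by symbol, not Tead1 or Tead4. The motif stood in at least one promoter of 7 of the 8 genes, Tead2 being the exception, against 16.6% of 27025 genes and 14.7% of 32851 promoters. Of the other lists described here, it stood in 5 of 23 other Hippo genes, 3 of 4 Vgll genes and 4 of 12 YAP/TAZ target genes with a promoter entry. A core SOX motif, ACAATG, searched likewise, stood in 1 of the 8 genes, Lats2, against 14.3% of all genes. Only this exact spelling was searched, so other forms of the SOX motif may stand in any of these promoters. The letters of the windows that hold the matches are printed in gene orientation with the motifs in capitals. For Tead2, the member called with Sox2 loss in oral tumors by the thresholds given below, the longest stretch is shown. It holds neither GGAATG nor ACAATG in these exact letters.
Tead2 (chr7:45215542-45215821, + strand): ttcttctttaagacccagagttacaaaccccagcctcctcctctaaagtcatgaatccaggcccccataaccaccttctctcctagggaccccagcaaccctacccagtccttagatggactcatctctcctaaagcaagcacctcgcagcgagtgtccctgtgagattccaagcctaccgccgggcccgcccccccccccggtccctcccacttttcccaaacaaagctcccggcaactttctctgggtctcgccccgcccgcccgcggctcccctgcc
Tead3 (chr17:28350573-28350743, - strand): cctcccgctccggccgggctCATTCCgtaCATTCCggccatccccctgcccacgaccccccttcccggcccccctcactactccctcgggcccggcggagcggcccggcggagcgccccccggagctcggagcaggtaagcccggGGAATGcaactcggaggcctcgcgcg
Yap1 (chr9:8004712-8004757, - strand): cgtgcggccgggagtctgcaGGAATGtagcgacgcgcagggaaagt
Wwtr1 (chr3:57576021-57576066, - strand): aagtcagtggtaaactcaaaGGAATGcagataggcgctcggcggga
Ajuba (chr14:54577800-54577867, - strand): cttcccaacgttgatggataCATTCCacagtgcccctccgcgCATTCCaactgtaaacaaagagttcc
Amotl2 (chr9:102717719-102717764, + strand): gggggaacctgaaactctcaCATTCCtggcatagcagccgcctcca
Lats2 (chr14:57746094-57746139, - strand): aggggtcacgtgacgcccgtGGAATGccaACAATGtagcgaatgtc
Ankrd1 (chr19:36119942-36120074, - strand): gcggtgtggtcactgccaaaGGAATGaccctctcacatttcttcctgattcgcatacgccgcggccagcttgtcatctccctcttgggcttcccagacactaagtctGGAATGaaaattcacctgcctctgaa
In Lats2 the TEAD motif began 5 bases and the SOX motif 14 bases after the start site. In Tead3 the 3 matches of the window printed began 123 and 114 bases before and 3 bases after the start site, and in Ankrd1 the pair of matches began 210 and 123 bases before it. A match of letters is a description and shows no binding.

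Total estimated counts were 29394258 to 40420228 in oral WT, 11735315 and 20432164 in oral KO, 40964533 to 46134830 in pancreatic WT and 89562790 to 120482829 in pancreatic KO tumors. Protein-coding genes took 84.5% to 91.7% of the counts in 12 tumors and 59.5% in oral KO tumor 1. Sox2 had 410 to 680 counts in oral WT and 1111 to 1487 in pancreatic WT tumors, and at most 1 count in oral KO and 2 counts in pancreatic KO tumors. Nutm1, normally silent outside the testis, stood at 41.0 to 64.4 CPM (counts scaled to a common library size) across all 13 tumors, and the squamous markers Krt5, Krt14 and Trp63 at 440.0 CPM or more. The summed level of 12 fibroblast markers was 10163 to 20961 CPM in oral WT, 10682 and 11285 in oral KO, 1317 to 2751 in pancreatic WT and 2717 to 4721 in pancreatic KO tumors. The summed level of 20 skeletal muscle markers was 25.9 to 667 CPM in oral WT, 3384 and 5993 in oral KO, and 19.6 to 27.3 in pancreatic tumors. In bulk samples, fewer cells of a type and less RNA per cell cannot be told apart.

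Levels were compared between the 10 genes per kilobase. With the length of all exons joined, Ajuba, Yap1 and Wwtr1 took the first 3 places in this order in all 4 groups, at 36.3 ± 16.3, 25.3 ± 6.4 and 14.7 ± 2.1 CPM per kilobase in oral WT tumors (SD, n = 4). The ranges of Ajuba and Yap1 overlapped in both WT groups and were apart in both KO groups. Tead1, Amotl2, Tead3 and Lats2 followed within 7.21 to 8.06 CPM per kilobase in oral WT tumors, each overlapping its neighbour. Tead2 (5.47 ± 0.63) and Tead4 (2.39 ± 0.97) came next there, and Ankrd1 was last in every group, at 0.190 ± 0.214 in oral WT tumors. When length was taken from the longest transcript, Yap1 came first and Ajuba second in every group with overlapping ranges. Yap1 counts ran from 1244 to 22585 per tumor, while Ankrd1 had 2 to 97. Between the lowest and highest of the 13 tumors the CPM differed 1.63-fold for Tead3, 1.88-fold for Wwtr1 and 1.98-fold for Tead1, but 8.09-fold for Tead4, 9.54-fold for Tead2 and 49.9-fold for Ankrd1.

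**Figure D1:**
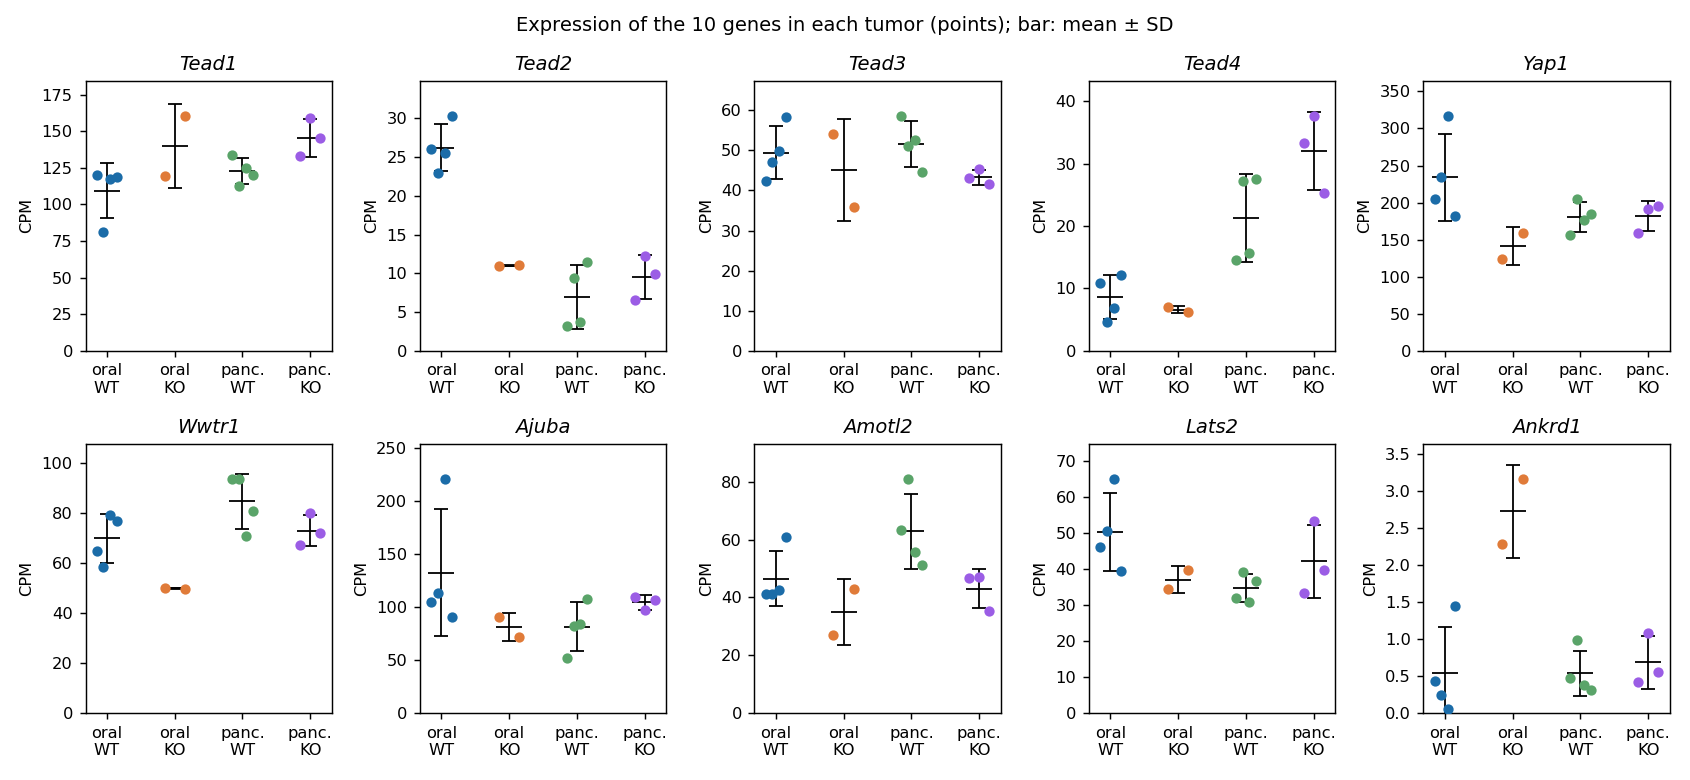
CPM (vertical axis, from 0) of each of the 10 genes in each tumor, by group on the horizontal axis (oral or pancreatic, panc.; Sox2 WT or KO). Points are tumors, bars the mean ± SD. Tead2 stands at 23 to 30.3 CPM in oral WT tumors and at or below 12.2 in the 9 others, and Tead4 is lower in every oral than in every pancreatic tumor.

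Tead2, a TEAD gene best known from early embryos and neural progenitors, was the one member of 10 called with Sox2 loss in oral tumors by the thresholds given below. Oral WT tumors had 26.0, 23, 25.5 and 30.3 CPM of Tead2 and oral KO tumors 10.9 and 11.01 CPM, with no overlap, as for 47% of all genes tested. Tead2 was thus 2.26-fold lower in oral Sox2 KO tumors (log2 fold change -1.18, SE 0.22, 95% interval -1.69 to -0.66, edgeR adjusted p = 0.0242). A gene counted as called when its adjusted p was below 0.05 and its log2 fold change beyond 1 in either direction, and such genes were 11.7% of 22342 tested, and 2.89% were called lower. The call rested on few tumors and held under 8 of 15 alternatives. It was lost without oral WT tumor 1 (adjusted p = 0.0617), oral WT tumor 2 (0.0710), oral KO tumor 1 (0.0800) or oral KO tumor 2 (0.100), at log2 fold changes of -1.15 to -1.24. It was also lost with protein-coding genes alone (-0.99, adjusted p = 0.0702), a setting in which 19 genes were called higher and 8 lower in all. The study, which used DESeq2 with apeglm shrinkage and the same thresholds, reported no differential expression with Sox2 loss for Tead1 to Tead4, Yap1 or Wwtr1 in either tissue. Here the oral Tead2 call also held with DESeq2, with and without apeglm, and the cause of this difference from the study was not tested.

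Tead2 was expressed at lower and more scattered levels in the pancreatic tumors. Its CPM was 3.18, 9.34, 3.72 and 11.5 in pancreatic WT and 6.56, 12.2 and 9.85 in pancreatic KO tumors, so these groups overlapped. The Sox2 difference there was 0.47 on the log2 scale (SE 0.48, 95% interval -0.65 to 1.59, edgeR adjusted p = 0.690). The difference between the Sox2 effects in the pancreatic and the oral tumors was 1.72 for Tead2 (SE 0.61, interval 0.39 to 3.05), and its edgeR adjusted p of 0.0730 missed the threshold. DESeq2 called it (1.76, adjusted p = 0.0298), as did edgeR without pancreatic WT tumor 4 (2.12, adjusted p = 0.0262). Among WT tumors, Tead2 was 3.79-fold higher in oral than in pancreatic tumors (log2 fold change 1.92, SE 0.41, edgeR adjusted p = 0.0105), a call that held under all 17 alternatives. Calls by this rule made up 16.5% of 23164 genes tested in that comparison, and 2 of the 10 members were among them, Tead2 with the 9.3% called higher in oral tumors and Tead4 with the 7.24% called lower. Among KO tumors the log2 difference between the tissues was 0.14 (interval -0.67 to 0.96, edgeR adjusted p = 0.758).

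Markers of stromal cells also differed between the groups in which Tead2 differed. Of the 12 fibroblast markers, 11 were called higher in oral WT than in pancreatic WT tumors, beside 9.3% of all genes. In the oral KO tumors, where Tead2 was at 10.9 and 11.01 CPM, the summed fibroblast level (10682 and 11285 CPM) lay within the range of the oral WT tumors. Col1a1 and Col3a1 were the 2 most abundant markers in that sum. The single markers differed: Dcn (log2 fold change -3.40) and Lum (-2.09) were called lower, as were 2.89% of all genes, while 5 of the 12 had log2 fold changes above 0. The summed level of 10 myeloid markers was 381 to 669 CPM in oral WT and 150.2 and 205 CPM in oral KO tumors, with 4 of 10 called lower, beside the same 2.89% of all genes. The part of these cells in the Tead2 difference was not tested.

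Tead4, a TEAD gene known from the trophectoderm and from epithelial tumors, separated the tissues in the other direction. Its CPM was 10.9, 4.65, 6.81 and 12.2 in oral WT and 6.95 and 6.21 in oral KO tumors. In pancreatic WT tumors it was 14.6, 27.2, 15.7 and 27.5, and in pancreatic KO tumors 33.3, 37.6 and 25.3. Every oral tumor lay below every pancreatic one. Tead4 was 2.45-fold lower in oral than in pancreatic WT tumors (log2 fold change -1.30, SE 0.35, interval -2.08 to -0.51, edgeR adjusted p = 0.0267). This call was lost without oral WT tumor 2 (-1.09, adjusted p = 0.0510) or 3 (-1.19, 0.0679) and without pancreatic WT tumor 2 (-1.16, 0.0692) or 4 (-1.13, 0.0683). Among KO tumors the difference was 5.07-fold (log2 fold change -2.34, SE 0.26, interval -2.98 to -1.71, edgeR adjusted p = 0.00617) and was called under all 14 alternatives. Calls made up 25.2% of 24787 genes in the KO comparison of tissues, which again held 2 members, Tead4 with the 10.7% called lower in oral tumors and Ankrd1 with the 14.6% called higher. Genes whose KO groups did not overlap between the tissues, with CPM scaled on the KO tumors alone, were 61.7%. On that scale 5 of 10 members were among them (Tead4, Yap1, Wwtr1 and Ajuba lower in oral tumors, Ankrd1 higher). On the CPM printed here, scaled over all 13 tumors, Yap1 overlapped (159.4 in oral KO tumor 2 and 159.2 in pancreatic KO tumor 1).

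Sox2 status was not accompanied by a called Tead4 difference in either tissue. The log2 fold change was -0.31 (interval -1.33 to 0.71, edgeR adjusted p = 0.636) in oral and 0.60 (interval -0.02 to 1.23, edgeR adjusted p = 0.331) in pancreatic tumors. The summed level of 10 basal keratinocyte markers, which the tumor cells themselves express, was 4969 to 9178 CPM in oral WT, 4475 and 5198 in oral KO, 9301 to 17149 in pancreatic WT and 13915 to 16137 in pancreatic KO tumors. These sums ran in the same direction between the tissues as Tead4, and their part in its difference was not tested.

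Tead1 and Tead3, broadly expressed TEAD genes, had no call in the 5 comparisons. Tead1 stood at 120.4, 81.0, 117 and 119 CPM in oral WT and 119.6 and 160.3 in oral KO tumors, and at 133, 113, 125 and 120.1 in pancreatic WT and 133, 159 and 145 in pancreatic KO tumors. In pancreatic tumors its Sox2 difference was 0.26 (SE 0.11, unadjusted p = 0.0410, edgeR adjusted p = 0.288). Tead3 stood at 42.5 to 58.4 CPM in oral WT, 36.0 and 54.0 in oral KO, 44.6 to 58.5 in pancreatic WT and 41.5 to 45.2 in pancreatic KO tumors. All 4 groups overlapped, and its log2 differences lay between -0.24 and 0.00 in the 4 group comparisons.

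The makeup of the TEAD pool does not depend on library scaling. Of the summed counts of the 4 TEAD genes, Tead2 took 12.8% to 14.8% in oral WT, 5.15% and 5.70% in oral KO, 1.51% to 5.64% in pancreatic WT and 3.04% to 4.81% in pancreatic KO tumors. The oral WT range lay above those of the other 3 groups, and the oral KO values were close to the top of the pancreatic WT range. Tead4 took 2.91% to 5.54% of the counts in oral and 6.95% to 15.4% in pancreatic tumors. Per kilobase of exon, Tead1 was first in mean share in all 4 groups, at 34.5% ± 3.2 in oral WT and 48.8% in oral KO tumors (SD 9.8, n = 2). In the pancreatic KO tumors Tead4, at 27.0% to 34.5%, stood above Tead3, at 21.4% to 23.9%, an order that turned by longest transcript (Tead4 21.7% to 28.04%, Tead3 29.3% to 32.4%). By longest transcript, Tead3 also had a higher mean share than Tead1 in both WT groups. Few sequences were shared within the family: at most 0.796% of the 31-base stretches of a TEAD gene (Tead4) also stood in another member.

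**Figure D2:**
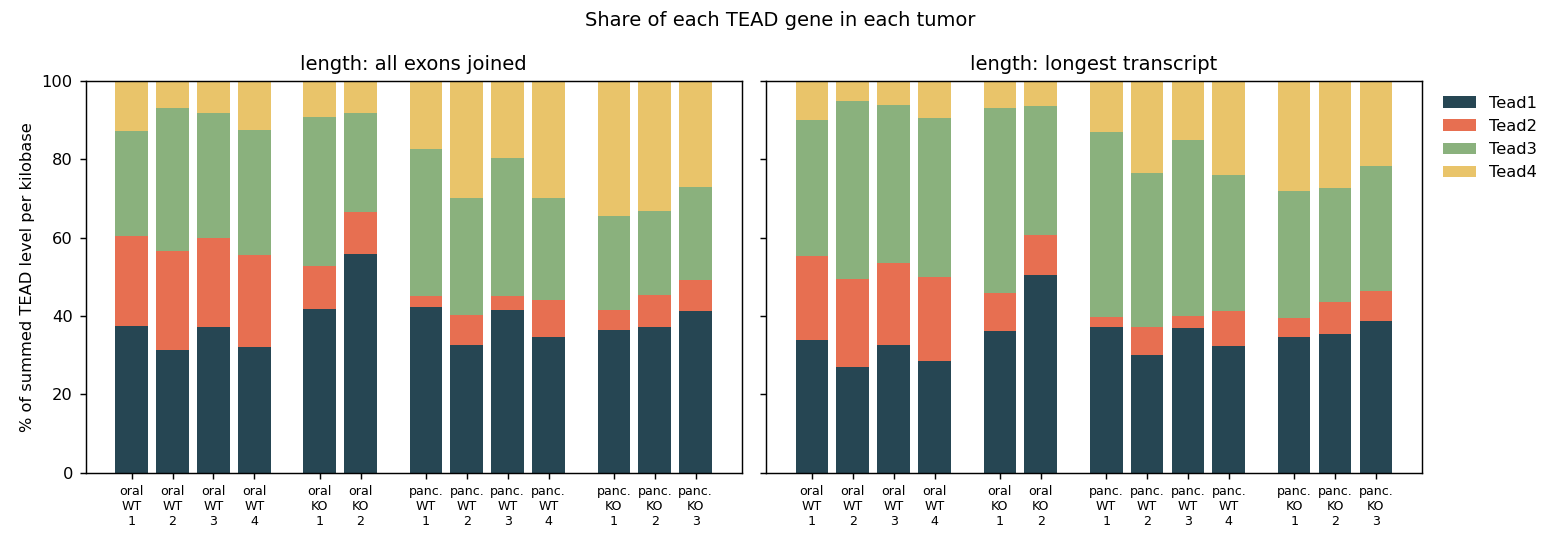
Share of Tead1, Tead2, Tead3 and Tead4 in the summed TEAD level per kilobase (vertical axis, %) in each of the 13 tumors (horizontal axis, by tissue, Sox2 status and tumor number), with length from all exons joined (left) or the longest transcript (right). The Tead2 segment is 22.9% to 25.2% in oral WT and 10.8% in both oral KO tumors (left), and the Tead4 segment is the larger in the pancreatic tumors.

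Yap1 and Wwtr1, the co-activators that TEAD factors recruit, had no gene called in any comparison. Yap1 stood at 204, 234, 317 and 182 CPM in oral WT and 124 and 159 in oral KO tumors. In pancreatic tumors it was at 156, 204, 176 and 184 (WT) and 159, 191 and 196 CPM (KO). The oral groups were apart and the pancreatic groups overlapped. The oral Sox2 difference was -0.66 on the log2 scale (SE 0.28, interval -1.30 to -0.01, unadjusted p = 0.0465, edgeR adjusted p = 0.135), and the pancreatic one 0.03 (SE 0.13, interval -0.27 to 0.33, edgeR adjusted p = 0.940). The difference between these effects was 0.74 (interval 0.13 to 1.36, edgeR adjusted p = 0.0884).

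Wwtr1 stood at 65.0, 58.7, 79.5 and 77.0 CPM in oral WT and 50.2 and 49.9 in oral KO tumors. In pancreatic tumors it was at 93.7, 93.5, 70.8 and 81.0 (WT) and 67.3, 79.9 and 72.1 CPM (KO). For both co-activators, the oral KO tumors lay below every oral WT tumor. The Wwtr1 difference was -0.41 (SE 0.20, edgeR adjusted p = 0.187) in oral and -0.20 (SE 0.13, edgeR adjusted p = 0.510) in pancreatic tumors. Genes whose oral groups did not overlap, with CPM scaled on the oral tumors alone, were 47% of those tested. On that scale 5 of 10 members were among them (Tead1 and Ankrd1 higher in KO, and Tead2, Yap1 and Wwtr1 lower). On the CPM printed here, scaled over all 13 tumors, Tead1 overlapped (120.4 in oral WT tumor 1 and 119.6 in oral KO tumor 1). Between the KO tissues Wwtr1 had an edgeR adjusted p of 0.0338 with a log2 difference of -0.60, short of the 1 required for a call, and leaving out any one KO tumor gave adjusted p of 0.074 to 0.108.

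The ratio of Yap1 to Wwtr1 per kilobase of exon was 1.74 ± 0.40 in oral WT (SD, n = 4), 1.27 and 1.65 in oral KO, 1.11 ± 0.18 in pancreatic WT (SD, n = 4) and 1.29 ± 0.10 in pancreatic KO tumors (SD, n = 3). The groups overlapped, and by longest transcript the means were 3.00, 2.51, 1.91 and 2.21. Among 17461 protein-coding genes, the profiles nearest to that of Yap1 over the 13 tumors were those of Edc3, Zfp746 and Bap1, with root mean square differences of 0.0961, 0.110 and 0.115 in centred log2 CPM. Those nearest to Wwtr1 were Gak (0.108), Tmem63a (0.117) and Adipor1 (0.120). The own profiles of Yap1 and Wwtr1 varied by 0.311 and 0.281 on the same scale.

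Lats2, Amotl2 and Ajuba act upstream of or beside YAP, and none of them was called in any comparison. Lats2 encodes one of the LATS kinases and is itself a YAP target. It stood at 46.2, 50.5, 65.0 and 39.4 CPM in oral WT, 34.5 and 39.7 in oral KO, 32.0, 39.3, 30.9 and 36.6 in pancreatic WT and 33.3, 53.3 and 39.8 in pancreatic KO tumors. Every oral WT tumor lay above every pancreatic WT tumor (log2 difference 0.53, SE 0.17, edgeR adjusted p = 0.0458), short of the fold a call requires, and leaving out 1 tumor gave adjusted p of 0.0194 to 0.123. Genes whose WT groups did not overlap were 28% of those tested, and 3 of 10 members were among them (Tead2 and Lats2 higher in oral, Tead4 lower). Of the 31-base stretches of Lats2, 41.7% also stand in the overlapping gene Gm49361, which had counts in 1 tumor, 6.86 against 1640 for Lats2, and the split between these genes rests on kallisto.

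Amotl2 encodes an angiomotin-like scaffold that binds YAP at junctions. It stood at 63.3, 80.9, 55.8 and 51.3 CPM in pancreatic WT and 46.7, 47.2 and 35.4 in pancreatic KO tumors. It was the one member whose pancreatic groups were apart, against 15.5% of genes tested, at a log2 fold change of -0.53 (SE 0.18, interval -0.96 to -0.11, unadjusted p = 0.0190, edgeR adjusted p = 0.212). In oral tumors it stood at 41.3, 41.2, 42.5 and 60.8 (WT) and 27.0 and 42.9 CPM (KO), with a log2 fold change of -0.34 (edgeR adjusted p = 0.390). Ajuba encodes a LIM protein that restrains the LATS kinases. It stood at 105, 113, 221 and 90.5 CPM in oral WT, 90.6 and 72.2 in oral KO, 52.0, 81.9, 84.5 and 108 in pancreatic WT and 109.8, 96.8 and 107 in pancreatic KO tumors. With Sox2 loss the Ajuba difference was -0.63 on the log2 scale (SE 0.40, edgeR adjusted p = 0.296) in oral and 0.37 (SE 0.21, edgeR adjusted p = 0.454) in pancreatic tumors, and the difference between the effects was 1.06 (interval 0.07 to 2.04, edgeR adjusted p = 0.124).

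Ankrd1, a YAP target that is also a stress-responsive gene of striated muscle, was scarce in all tumors. Its CPM was 0.441, 0.246, 0.0633 and 1.45 in oral WT and 2.28 and 3.16 in oral KO tumors, from 2 to 63 and from 23 to 81 counts. In pancreatic tumors it was 0.472, 0.991, 0.387 and 0.320 (WT) and 0.420, 1.09 and 0.555 (KO). Both oral KO tumors lay above all other tumors. The oral Sox2 difference was 2.36 on the log2 scale (SE 0.94, interval 0.16 to 4.57, unadjusted p = 0.0391) and was not called (edgeR adjusted p = 0.122). Without oral WT tumor 4 it was 3.48 and called (adjusted p = 0.0319), and the difference from the pancreatic effect was then called too (-3.06, adjusted p = 0.0370, against -1.94 and 0.235 with all tumors). Between the KO tissues Ankrd1 was 3.83-fold higher in oral tumors (log2 fold change 1.94, SE 0.52, edgeR adjusted p = 0.0350). That call was lost without oral KO tumor 1 (2.19, adjusted p = 0.0604) or 2 (1.71, 0.129) and without pancreatic KO tumor 1 (1.75, 0.0820) or 3 (1.83, 0.0928).

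Muscle RNA differed between the oral tumors as well. The summed level of the 20 skeletal muscle markers was 30.2, 25.9, 42.8 and 667 CPM in oral WT tumors 1 to 4 and 5993 and 3384 CPM in oral KO tumors 1 and 2. The 3 tumors with the highest muscle sums were also the 3 with the highest Ankrd1 levels. Orders within the groups rest on few Ankrd1 counts. Oral WT tumor 3 had more muscle RNA than tumors 1 and 2 and the lowest Ankrd1 level (0.0633 CPM, from 2 counts). Oral KO tumor 1 had more muscle RNA and less Ankrd1 (23 counts) than tumor 2 (81 counts). All 20 muscle markers had a log2 fold change above 0 in oral KO against WT tumors, with a median of 3.47 (all genes tested, -0.00). Of the 20, 2 were called, where 11.7% of all genes were called in either direction. In pancreatic tumors the sums were 19.6 to 27.3 CPM, with Myod1 at 0 counts (which allows up to 3) in all 7, and Ankrd1 stood at 0.320 to 1.09 CPM. The part of muscle in the Ankrd1 difference was not tested. The profiles nearest to that of Ankrd1 were those of Slc25a34, Olfr122 and Rnf165, at root mean square differences of 0.614 to 0.648 against 1.281 for its own profile.

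**Figure D3:**
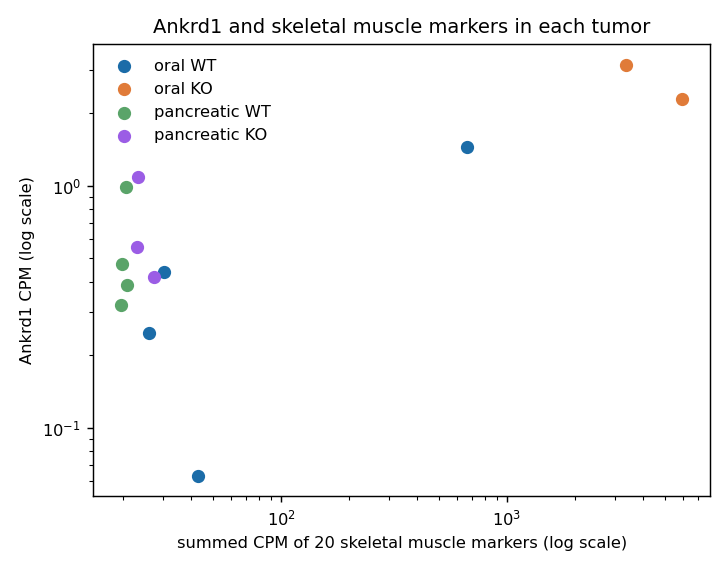
Ankrd1 CPM (vertical axis, log scale) against the summed CPM of 20 skeletal muscle markers (horizontal axis, log scale) in each of the 13 tumors, coloured by group. The 2 oral KO tumors and oral WT tumor 4 stand to the right, at 667 to 5993 CPM of muscle markers and 1.45 to 3.16 CPM of Ankrd1.

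Set side by side, the Sox2 effects on 8 of the 10 genes stayed within 0.66 on the log2 scale in both tissues, with Tead2 and Ankrd1 beyond that in oral tumors. In oral tumors 8 of 10 log2 fold changes were below 0, with a median of -0.35 (all genes tested, non-coding ones included, -0.00). In pancreatic tumors 7 of 10 were above 0, with a median of 0.28 (all genes tested, 0.02). None of the 10 was called in pancreatic tumors, where 0.629% of 24653 genes were (83 higher and 72 lower; 3 and 7 with protein-coding genes alone), and 2 (Tead1 and Amotl2) had an unadjusted p below 0.05, which 15.9% of genes had. DESeq2 called none of the 10 there either. For the difference between the oral and pancreatic effects, edgeR called none of the 10 and DESeq2 called 1 (Tead2), with 12.3% of 25836 genes called by edgeR and 4 members (Tead2, Yap1, Ajuba and Lats2) at an unadjusted p below 0.05, as were 34% of genes. The 4 had positive differences, from 0.72 to 1.72. The 2 Sox2 comparisons share no tumor, but the comparisons of tissues reuse the same tumors. With protein-coding genes alone, the oral KO log2 fold changes of the 10 genes moved up by 0.18 to 0.20. The oral against pancreatic KO differences moved up by 0.27 to 0.28, and the differences between the effects moved by -0.21 to -0.19. The oral median over genes tested was -0.02 in that setting, so the all-gene median above is not a coding-gene reference. Oral KO tumor 1 was the tumor with 59.5% of its counts in protein-coding genes.

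**Figure D4:**
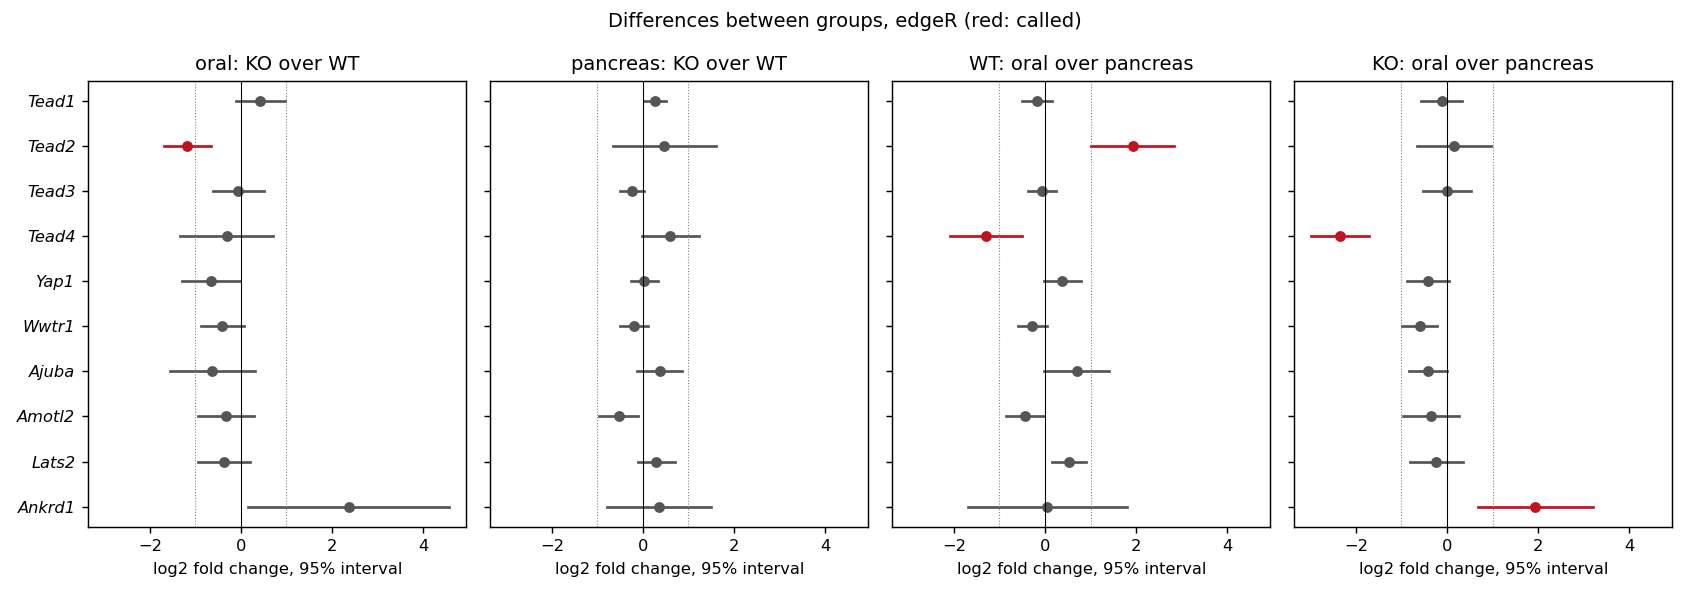
Log2 fold change (horizontal axis, points) with its 95% interval (lines) for each of the 10 genes in 4 comparisons, from edgeR. Red marks called genes, and dotted lines mark log2 fold changes of -1 and 1. Tead2 is red for oral KO over WT (-1.18) and WT oral over pancreas (1.92), Tead4 for both tissue comparisons, and Ankrd1 for KO oral over pancreas (1.94).

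Other genes of the pathway were described from 3 lists: 29 further Hippo genes, the 4 Vgll genes, whose products compete with YAP for TEAD binding, and 19 YAP/TAZ target genes. With Sox2 loss, 0 of 29 Hippo genes were called by edgeR in either tissue, beside 11.7% (oral) and 0.629% (pancreatic) of all genes. An unadjusted p below 0.05 was found for 2 in oral and 1 in pancreatic tumors, beside 35.4% and 15.9% of all genes. The 2 in oral tumors were Nf2 and Mob1a, which encode the merlin scaffold and a LATS co-activator. Nf2 was lower in oral KO (78.5 and 98.8 CPM) than in oral WT tumors (144 to 195), with an edgeR adjusted p of 0.0483 and a log2 fold change of -0.79, short of the 1 required for a call. Mob1a had a log2 fold change of -0.60 (edgeR adjusted p = 0.121). Map4k4 and Taok1, kinases that can feed into LATS and the most abundant genes of the list, had log2 fold changes of -0.29 (edgeR adjusted p = 0.380) and 0.08 (0.763) in oral tumors. The median log2 fold change of the 29 genes was -0.25 in oral and 0.11 in pancreatic tumors, beside -0.00 and 0.02 over all genes tested. The oral all-gene median includes non-coding genes and is not a coding-gene reference. With protein-coding genes alone that median was -0.02. The oral log2 fold changes of the TEAD, Yap1 and other genes chosen by name moved up by 0.18 to 0.20 there. The median of the 29 genes was not taken in that setting, so a drop against coding genes was not tested.

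Of the 19 target genes, 1 was called in oral tumors, where 11.7% of all genes were. In pancreatic tumors edgeR called 0 of 19, beside 0.629% of all genes, and 6 had an unadjusted p below 0.05, beside 15.9% of all genes. Igfbp3, an insulin-like growth factor binding protein, was 2.46-fold lower in oral KO (478 and 609 CPM) than in oral WT tumors (1042 to 1647; log2 fold change -1.30, SE 0.28, edgeR adjusted p = 0.0317). The call held under 8 of 15 alternatives. It was lost without oral WT tumor 1 (-1.25, adjusted p = 0.0708), 2 or 3 and without either oral KO tumor. Igfbp3 was also not called by edgeR with protein-coding genes alone (-1.11, adjusted p = 0.0794) or with the tumor number as a block (-1.47, 0.158). Ccn1, which encodes a matricellular protein, also passed on p but not on fold in oral tumors (log2 fold change -0.95, edgeR adjusted p = 0.0498). In pancreatic tumors the Igfbp3 difference was -1.14 (SE 0.48, edgeR adjusted p = 0.306). Ccn2, the connective tissue growth factor gene and the usual readout of YAP activity, stood at 97.7 to 250.6 CPM in oral WT, 63.1 and 110.2 in oral KO, 57.1 to 566 in pancreatic WT and 141 to 493 in pancreatic KO tumors. Its Sox2 differences were -0.91 (edgeR adjusted p = 0.172) in oral and 0.52 (edgeR adjusted p = 0.796) in pancreatic tumors.

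Between WT tumors, 4 of 29 Hippo genes were called higher and 3 lower in oral tumors, where 9.3% of all genes were called higher and 7.24% lower. The tissue comparisons also held more calls over all genes (16.5% in WT and 25.2% in KO tumors) than the Sox2 comparisons. Fat4 and Dchs1, the protocadherin receptor and ligand at the top of the pathway, were 8.24-fold and 4.55-fold higher (log2 fold changes 3.04 and 2.19, edgeR adjusted p = 0.00392 and 0.00505). Amot, the angiomotin gene, was also higher (2.14, edgeR adjusted p = 0.0105), and the polarity gene Crb3 (-1.99, 0.0177) and the kinase gene Taok3 (-1.68, 0.00103) were lower. These 5 calls held under all 17 alternatives, while those of Map4k1 (1.35, 0.0479) and Tnik (-1.07, 0.0476) held under 9 and 7. Of the 19 target genes, 4 were called higher (Tgfb2, Ptpn14, Foxf2 and Asap1) and 5 lower (Ccdc80, F3, Rbms3, Nuak2 and Gadd45a), with log2 fold changes from -2.39 for Ccdc80 to 2.66 for Tgfb2, beside the same 9.3% and 7.24% of all genes. Foxf2 kept its call under 11 of 17 alternatives and the other 8 under at least 15. The median of the 19 was -0.09 (all genes tested, 0.00). Fat4 and Dchs1 ran in the same direction between the tissues as the fibroblast sums, whose part was not tested.

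Between KO tumors, Fat4 (2.81, edgeR adjusted p = 0.00787) and Dchs1 (1.53, 0.0269) were again higher in oral tumors, where 14.6% of all genes were, and 7 Hippo genes were lower, as were 10.7% of all genes: Taok3 (-2.41), Tnik (-1.62), Wwc1 (-1.29), Mob1a (-1.15), Mink1 (-1.14), Map4k3 (-1.12) and Map4k4 (-1.08). Of these 9, Fat4, Taok3, Tnik and Wwc1 were called under all 14 alternatives and the others under 9 to 12. Dchs1, Map4k3, Map4k4, Mink1 and Mob1a were each lost without oral KO tumor 1, 2 or both. With protein-coding genes alone, Mob1a (-0.88), Mink1 (-0.86), Map4k3 (-0.84) and Map4k4 (-0.80) also fell short of the fold a call requires. Of the target genes, Tgfb2 was called higher (1.30, edgeR adjusted p = 0.0371) and Ccdc80 (-3.48), Rbms3 (-2.42), Ccn2 (-2.03) and Fjx1 (-1.70) lower. Ccn2 (edgeR adjusted p = 0.0434) held under 7 and Tgfb2 under 8 of 14 alternatives. Vgll4 and Vgll3, the most abundant Vgll genes, stood at 45.3 to 79.1 and 8.55 to 23.5 CPM with no call. Vgll2, a Vgll gene of skeletal muscle, had 12 and 26 counts in the oral KO tumors, 0 to 24 in oral WT and 0 in all 7 pancreatic tumors. A count of 0 allows up to 3 counts, so with this limit taken per tumor Vgll2 was at least 32.8-fold higher in oral than in pancreatic KO tumors, beside the muscle sums given above. It passed the count filter through the oral tumors alone. The fit called Vgll2, but the filter favoured that outcome, so the call is not used and the difference is a description.

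**Figure D5:**
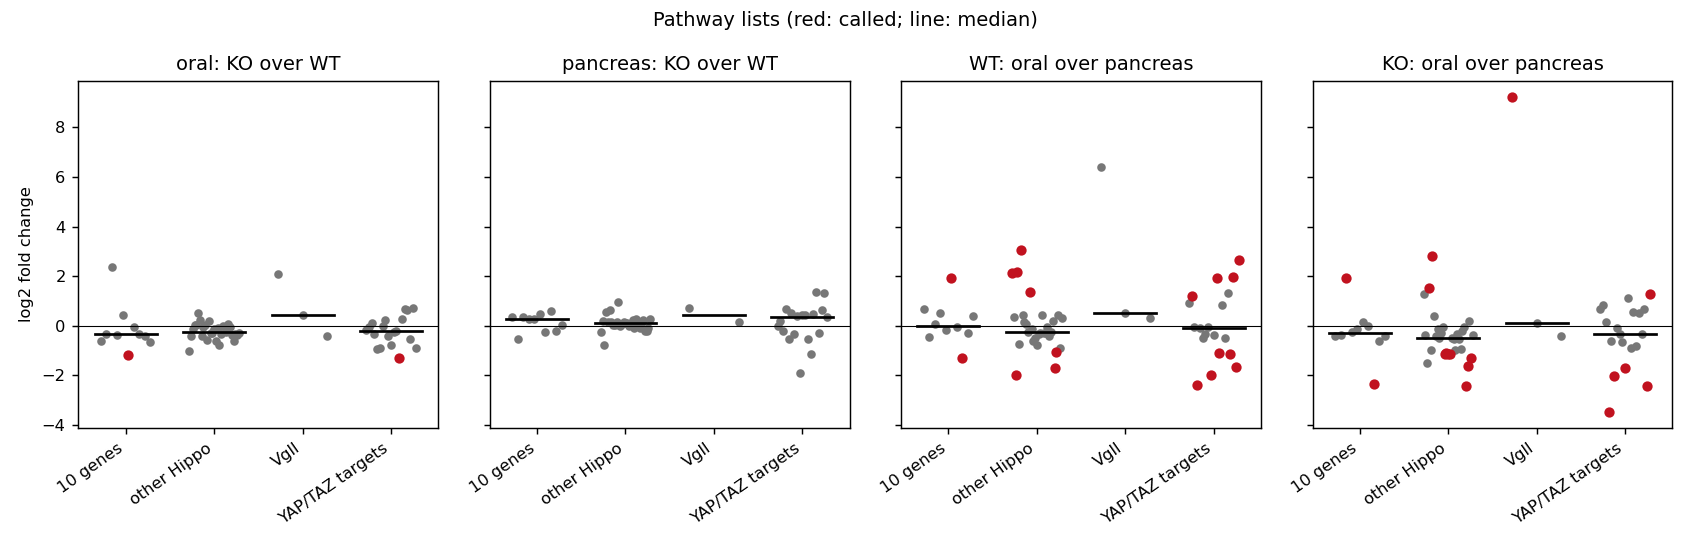
Log2 fold change (vertical axis) of each tested gene of the 10 genes, 29 other Hippo genes, Vgll genes and 19 YAP/TAZ targets (horizontal axis) in 4 comparisons. Points are genes, red marks called genes and lines the list medians. Called genes stand on both sides of 0 in the tissue comparisons. The points of Vgll2 (up to 9.23) depend on the small count added in the fit, since Vgll2 has 0 counts in pancreatic tumors. It passed the count filter through oral tumors alone, so its red mark for KO oral over pancreas is not used as a call.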

How the data were processed

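RNA was extracted from 13 whole tumors, and stranded libraries of rRNA-depleted total RNA were sequenced. The authors trimmed reads with Trim Galore 0.6.10 (FastQC 0.12.1), quantified them with kallisto 0.50.0 on GENCODE M23 (GRCm38) and deposited estimated counts per gene without normalization (27.3% of values not whole). Counts were rounded here. Symbols and positions came from GENCODE M21, which held 55141 of the 55332 valued gene IDs, and Ctgf and Cyr61 were matched as Ccn2 and Ccn1. Genes reaching 10 counts in 2 or more of a comparison's tumors were fitted by edgeR 4.0.16 (robust quasi-likelihood test, TMM factors, Benjamini-Hochberg adjustment over all genes tested). Each comparison was fitted on its own tumors and the interaction on all 13. Printed CPM used TMM factors over all tumors, while shares of genes without overlap used factors from each comparison's own tumors. The fits were tested on simulated data. The limit of 3 counts covers counting error only, while the ranges and SDs of shares are between tumors.

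The 10 genes and the lists were chosen with earlier results of these data known. Also named were Sox2, list genes that were called (at most 5 per direction) or the 2 most abundant, and the 3 profiles nearest to Yap1, Wwtr1 and Ankrd1. Nutm1, Krt5, Krt14, Trp63, Myod1, Nf2, Mob1a, Ccn1 and the called Hippo genes past the fifth per direction were named beyond that rule, after their values were seen. Alternatives were DESeq2 1.42.0 with and without apeglm 1.24.0, its size factors in edgeR, 2 other count filters, protein-coding genes only, 1 fit of all 13 tumors, non-robust dispersions, the tumor number as a block, each tumor left out in turn, and transcript length for levels per kilobase.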

Additional observations from a re-analysis of the deposited data

Results flagged for a closer look

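In groups of 4 tumors, a value was singled out when its gap to the next, divided by the group's range, exceeded Dixon's 95% critical value. Of 20 groups tested over the 10 genes, 2 held such a value, and chance gives about 1 in 20. Tead1 stood at 81.0 CPM in oral WT tumor 2, below the 117 to 120.4 CPM of the other oral WT tumors (gap over range 0.922). Amotl2 stood at 60.8 CPM in oral WT tumor 4, above the 41.2 to 42.5 CPM of the others (0.933). No explanation of either value was tested.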

How the results depend on the processing

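Across the 827 log2 fold changes refitted for the 10 genes, 774 kept their direction and side of the threshold, 17 lost and 5 gained it, and 31 changed sign, none of these being called. The oral KO count of genes called lower (1, Tead2) was 0 with protein-coding genes only, with 1 fit of all 13 tumors (-1.26, adjusted p = 0.0648) and with the tumor number as a replicate block (-1.06, adjusted p = 0.158), and 0 to 1 without 1 tumor; the count called higher (0) was 0 to 1. For the difference of effects, the count called higher (0) was 1 with DESeq2, 1 with apeglm and 0 to 1 without 1 tumor. The count called lower (0) was 0 to 1 without 1 tumor and moved in no other setting. Between WT tissues the count called lower (1, Tead4) was 0 to 1 without 1 tumor. Between KO tissues the count called higher (1, Ankrd1) was 0 with 1 fit of all 13 tumors (1.99, adjusted p = 0.0840), 0 with the replicate block (1.92, adjusted p = 0.0877) and 0 to 1 without 1 tumor. The cause was not tested.

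The values after a change of sign were as follows. In oral KO, Tead3 was 0.0488 with 10 counts in every tumor, 0.135 with protein-coding genes and 0.0742 with the block. In the difference of effects without a count filter, Tead1 was 0.021 and Tead3 0.0121. Between WT tissues Ankrd1 was -0.47 with the block. Between KO tissues Tead3 was -0.0148 with DESeq2 size factors, -0.0146 with apeglm, -0.0166 with DESeq2, -0.0697 without a filter and -0.0498 with the block, and protein-coding genes gave 0.16 for Tead1 and 0.0389 for Lats2. Without 1 tumor, values that changed sign ranged in oral KO from -0.40 to 0.24 (Tead3); in pancreatic KO from -0.0514 to 0.13 (Yap1) and -0.12 to 0.81 (Ankrd1); in the difference of effects from -0.25 to 0.11 (Tead1), -0.39 to 0.25 (Tead3) and -0.38 to 0.235 (Amotl2); between WT tissues from -0.15 to 0.0228 (Tead3) and -1.05 to 0.51 (Ankrd1); and between KO tissues from -0.31 to 0.13 (Tead1) and -0.28 to 0.30 (Tead3). Ankrd1 was filtered out by 10 counts in every tumor in 3 comparisons.

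Of the same-numbered pairs, 1 (pancreatic tumors 1) had deviations correlated at 0.317 and the others at -0.08 to 0.0284, so the numbers were taken as names only; the 2 oral KO tumors mirror each other and say nothing of pairing. The 2 oral KO tumors limit the oral comparisons: leaving one out assumes the other varies like the WT tumors, and with protein-coding genes only 27 genes in all were called, against 2614.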
